A study of Mus musculus with 6 samples.

Results

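Simple keratins and trophoblast factors were followed here as 8 genes, Krt7, Krt8, Krt18, Krt19, Tfap2c, Hand1, Gata3 and Elf5, in mouse embryonic stem cells and in the epiblast-like cells made from them. The 8 genes were taken by exact gene symbol, and 10 of the 33793 probes of the array carried one of these symbols alone. They are 8 of the 22180 genes that had at least 1 probe with a single symbol. Where a gene had more than 1 such probe, its log2 values were averaged.

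The cells were EB3 mouse embryonic stem cells (mESC), grown in N2B27 medium with LIF and BMP4, and epiblast-like cells (EpiLC), which were induced from them in 2 days on serum-coated dishes, in N2B27 with bFGF at 12 ng/ml and Activin A at 20 ng/ml. EpiLC model the step that follows the naive state in the embryo. Each state was profiled untreated, after 24 hours with 3 µM CHIR99021 (CHIR), and after 24 hours with 3 µM CHIR99021 and 1 µM PD0325901 (PD), which gives 6 Mouse Gene 2.0 ST arrays with 1 array in each group. CHIR inhibits the kinase GSK3 and so stabilises beta-catenin, and PD inhibits MEK and so blocks ERK1/2 activation. No array had PD without CHIR, so PD was measured only as an addition to CHIR. The labels do not say whether the 24 hours in EpiLC fell within or after the 2 days of induction. Treatment and time in culture therefore cannot be told apart between treated and untreated EpiLC. Cell state and growth medium changed together and cannot be told apart, and all 6 arrays derive from the one EB3 line.

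Keratins 7 and 8 are type II keratins and keratins 18 and 19 are type I keratins, and a filament forms only when a type II and a type I chain pair. Keratins 8 and 18 are the first pair made in the embryo, in the outer cells that become trophectoderm, and keratins 7 and 19 join them in simple epithelia and in trophoblast. Tfap2c, Gata3, Elf5 and Hand1 encode transcription factors that act in the trophoblast lineage. Tfap2c and Gata3 act in its specification, Elf5 in stem cell maintenance and Hand1 in giant cell formation. Tfap2c also acts in germ cell precursors, and Hand1 in extraembryonic and lateral mesoderm.

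The promoters of Krt7, Krt8 and Krt18 are shown because these are the keratins for which a window was at hand, and all 4 keratins had higher values with PD in both states. The 3 genes lie on chromosome 15. Krt8 and Krt18 lie near each other on opposite strands, with 2 genes annotated between them, of which 0 are protein-coding. Each sequence runs 5′ to 3′ on the strand of the gene, from 250 bases before to 50 bases after the start that RefSeq annotates on mouse build GRCm38.p6. Their positions are chr15:101412153-101412452 (plus strand) for Krt7, chr15:102004293-102004592 (minus strand) for Krt8 and chr15:102027966-102028265 (plus strand) for Krt18. Capitals mark matches, on either strand, to 7 motifs that were searched, and adjoining or overlapping matches form one run of capitals.
Krt7: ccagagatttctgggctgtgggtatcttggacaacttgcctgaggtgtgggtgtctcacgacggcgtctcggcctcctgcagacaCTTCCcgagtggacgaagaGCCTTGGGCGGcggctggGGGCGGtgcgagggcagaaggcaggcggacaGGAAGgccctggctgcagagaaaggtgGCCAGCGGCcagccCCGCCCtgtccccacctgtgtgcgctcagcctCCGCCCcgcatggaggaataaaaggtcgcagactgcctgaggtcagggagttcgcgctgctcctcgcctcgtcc
Krt8: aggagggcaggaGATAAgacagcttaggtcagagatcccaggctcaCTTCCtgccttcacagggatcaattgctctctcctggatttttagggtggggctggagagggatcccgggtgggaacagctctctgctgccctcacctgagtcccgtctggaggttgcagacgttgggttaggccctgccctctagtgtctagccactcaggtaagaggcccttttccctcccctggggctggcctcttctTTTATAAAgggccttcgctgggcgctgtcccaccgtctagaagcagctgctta
Krt18: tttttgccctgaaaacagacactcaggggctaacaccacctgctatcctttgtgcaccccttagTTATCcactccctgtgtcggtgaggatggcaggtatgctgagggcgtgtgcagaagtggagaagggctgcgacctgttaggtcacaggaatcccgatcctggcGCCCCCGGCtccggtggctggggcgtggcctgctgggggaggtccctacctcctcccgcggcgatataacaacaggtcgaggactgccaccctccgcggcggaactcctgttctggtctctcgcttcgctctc

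The motifs were AP-1 (TGANTCA, in 7.81% of the 32851 mouse promoters of this length), the Ets core (GGAAG, 71.4%), Tcf/Lef (CTTTGA, 16%), AP-2 (GCCNNNGGC, 16.6%), Gata (GATAA, 25.4%), a TATA box (TATAAA, 13.6%) and Sp/Klf (GGGCGG, 35.7%). The Krt7 window held 4 Sp/Klf, 2 AP-2 and 2 Ets matches, and 1 of the AP-2 matches overlapped an Sp/Klf match. The Krt8 window held 1 Ets match, 1 Gata match and 2 TATA matches that overlap each other on opposite strands across the annotated start. The Krt18 window held 1 AP-2 match and 1 Gata match. The letters of the AP-1 and Tcf/Lef motifs were in 0 of these 3 windows. A match describes the letters only. RefSeq promoter windows were at hand for 5 of the 8 genes (also Gata3 and Elf5).

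The deposited values were normalised linear intensities with a lowest value of 16 on every array, and the median intensity over all probes of an array lay between 60.55 and 65.17. Of 6 naive markers (Esrrb, Tfcp2l1, Klf4, Zfp42, Nr0b1, Tbx3), the summed intensity was 6206 to 8065 on the mESC arrays and 429.7 to 590.0 on the EpiLC arrays, so the labelled states separated. The summed intensity of 6 formative markers (Fgf5, Otx2, Pou3f1, Dnmt3b, Wnt8a, Cdh2) was 8156 in untreated EpiLC and 3102 in untreated mESC, and the EpiLC sum was down to 2029 with CHIR and PD. Dnmt3b was the largest part of both untreated sums (4850 and 2330). In EpiLC, Fgf5, Otx2, Pou3f1 and Dnmt3b were lower with CHIR and PD than untreated. Wnt8a (234 untreated and 525 with both) and Cdh2 (253 and 472) were higher. With 1 array per group there are no replicates, so differences between 2 arrays carry no test. The test used was limma's moderated test in a model with state and treatment as additive terms, over all 22180 genes with Benjamini-Hochberg adjustment. Its error measures departure from additive effects, not spread between cultures. In these bulk samples, fewer cells that express a gene and less RNA per cell cannot be told apart.

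The 8 genes fell into unlike patterns. The keratins Krt8, Krt18 and Krt19 had their lowest values on the untreated arrays of each state and their highest with CHIR and PD together. Krt7 was lowest with CHIR alone and highest with CHIR and PD in both states. Tfap2c and Hand1 separated the states on every array, and Elf5 was nearly level. Gata3 separated the states through only 1 of its 2 probes with a single symbol. The order of arrays is given for each gene below, and without replicates it cannot be said which neighbours in an order differ beyond their spread.

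**Figure D1:**
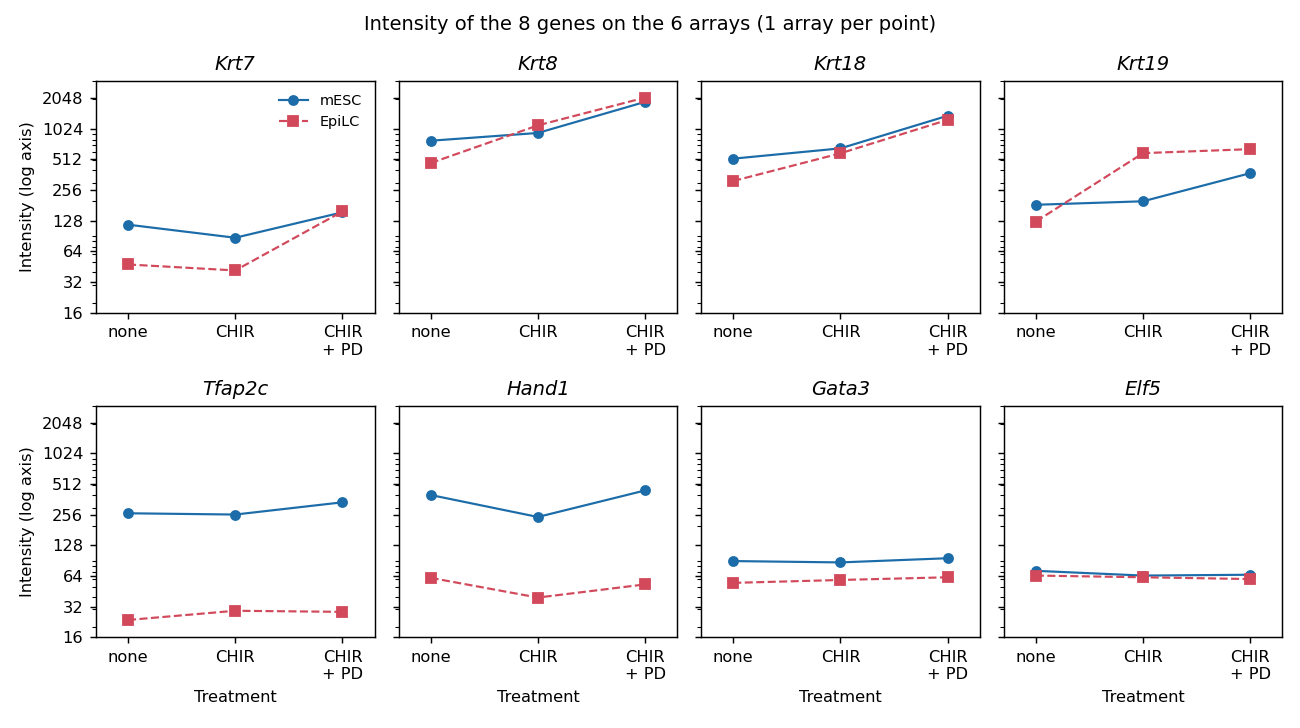
Intensity (log axis) of each of the 8 genes by treatment, with mESC as blue circles and EpiLC as red squares, 1 array per point. Krt8 reached 1872 and 2064 with CHIR and PD in mESC and EpiLC, while Tfap2c lay between 23.7 and 29.1 on all EpiLC arrays and between 256.3 and 337.9 on all mESC arrays.

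Krt8, the main type II keratin of simple epithelia, had intensities of 778.4 in untreated mESC, 927.9 with CHIR and 1872 with CHIR and PD. In EpiLC its values were 470.0 untreated, 1102 with CHIR and 2064 with CHIR and PD. Krt8 was thus lowest in untreated EpiLC and highest in EpiLC with both inhibitors, and the 2 states overlapped.

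Krt18, the type I partner of keratin 8, had intensities of 519.3, 655.2 and 1370 in mESC that were untreated, with CHIR, and with CHIR and PD. The EpiLC values in the same order were 313.5, 585.9 and 1248. The order of its 6 arrays differed from that of Krt8 in that the mESC array was the higher of the pair at every treatment. The log2 difference of Krt8 and that of Krt18 were within 0.41 of each other in each of the 9 comparisons between 2 arrays. The largest gap was between the states with CHIR, where Krt8 differed by 0.25 and Krt18 by -0.16. Over the 6 arrays the log2 values of the pair had a Pearson r of 0.978, as a description of points that share arrays.

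Krt19, a type I keratin that can pair with keratin 7 or 8, had intensities of 183.1, 198.2 and 374.1 in mESC that were untreated, with CHIR, and with CHIR and PD. In EpiLC it had 125.4, 588.2 and 643.7. Its low arrays were therefore all but the treated EpiLC arrays and the mESC array with both inhibitors. In EpiLC most of the difference came with CHIR, and in mESC with PD.

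Krt7, a type II keratin of glandular and trophoblast epithelia, had intensities of 116.8, 86.9 and 154.6 in mESC that were untreated, with CHIR, and with CHIR and PD. In EpiLC it had 47.5, 41.5 and 157.5. The 2 low arrays were EpiLC without PD, and the values with both inhibitors were close together in the 2 states. Both values of Krt7 in EpiLC without PD were below the median of all 22180 genes on their array (the array median below), while Krt8, Krt18 and Krt19 were above it on all 6 arrays.

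The addition of PD to CHIR gave higher values for all 4 keratins in both states. In mESC the difference was 2.09-fold for Krt18 (log2 1.06), 2.02-fold for Krt8 (1.01), 1.89-fold for Krt19 (0.92) and 1.78-fold for Krt7 (0.83). In EpiLC it was 3.79-fold for Krt7 (log2 1.92), 2.13-fold for Krt18 (1.09), 1.87-fold for Krt8 (0.91) and 1.09-fold for Krt19 (0.13). Of the 8 genes, 2 were at least 2-fold higher in mESC, where 0.252% of all genes were, and 2 in EpiLC, where 1.04% were. At least 2-fold lower were 0 of the 8 in either state, beside 0.523% and 1.01% of all genes. Krt18 was the 1 gene of the 8 past 2-fold in both states, as were 10 genes in all (0.0451%). In mESC all 8 genes were higher to some extent, as 48.0% of all genes were. Among the 8 genes, 6 were higher with PD in both states to any extent (all but Tfap2c and Elf5), against 24.9% of all genes. The median log2 difference of the 4 keratins was 0.96 in mESC and 1.00 in EpiLC, beside all-gene medians of -0.01 and -0.02.

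With CHIR alone, the larger keratin differences were on the EpiLC array. In mESC, 0 of the 8 genes were 2-fold apart from untreated in either direction (0.185% of all genes were higher and 0.153% lower), and the keratins ranged from -0.43 (Krt7) to 0.34 (Krt18) on the log2 scale. In EpiLC Krt19 was 4.69-fold higher (log2 2.23), Krt8 2.34-fold (1.23), Krt18 1.87-fold (0.90), and Krt7 differed by -0.19. At least 2-fold higher were thus 2 of the 8 genes, beside 1.77% of all genes, and 0 were at least 2-fold lower, beside 0.929%. The CHIR arrays enter both this comparison and the one for PD, so an error on such an array moves the 2 comparisons in opposite directions.

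**Figure D2:**
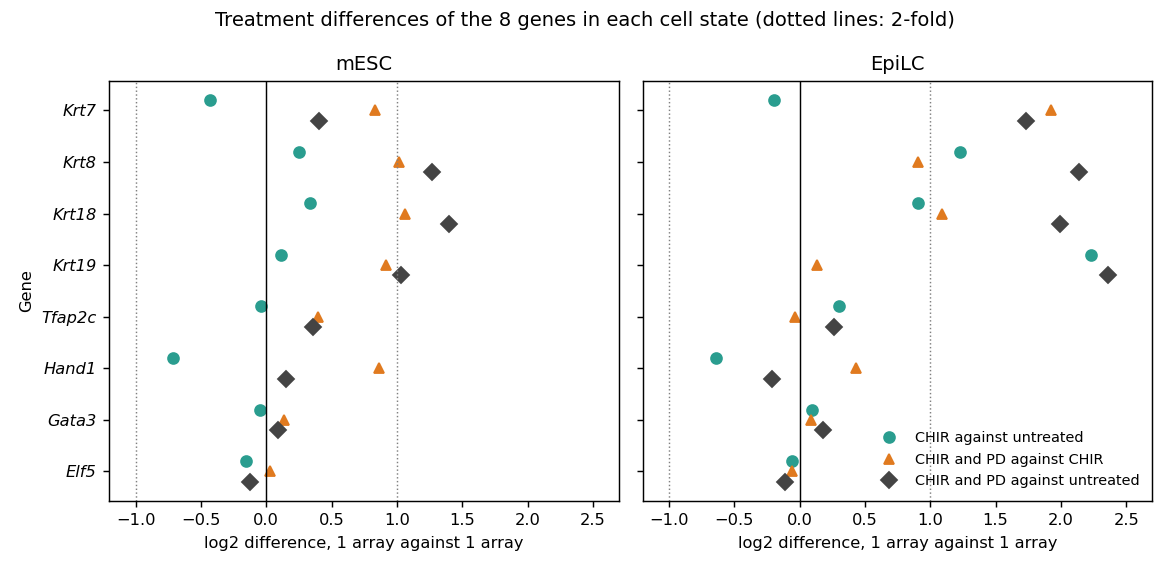
The log2 difference between 2 arrays (horizontal axis) for each of the 8 genes in mESC (left) and EpiLC (right), for CHIR against untreated (circles), CHIR and PD against CHIR (triangles) and CHIR and PD against untreated (diamonds), with dotted lines at 2-fold. All 4 keratins lie past 2-fold for both inhibitors in EpiLC (log2 1.73 to 2.36), and the 4 trophoblast factors lie between -0.21 and 0.36 in that comparison in either state.

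With both inhibitors against untreated, 4 of the 8 genes were at least 2-fold higher in EpiLC, where 2.62% of all genes were, and 3 in mESC, where 0.618% were. The keratins made up all of these, and 0 of the 8 were 2-fold lower (0.848% of all genes in mESC and 1.49% in EpiLC). The EpiLC differences were 5.13-fold for Krt19, 4.39-fold for Krt8, 3.98-fold for Krt18 and 3.31-fold for Krt7. The mESC differences were 2.64-fold for Krt18, 2.41-fold for Krt8, 2.04-fold for Krt19 and 1.32-fold for Krt7. Krt8, Krt18 and Krt19 passed 2-fold in both states, as did 55 genes in all (0.248%). Under other processing settings, the Krt19 difference in mESC ran from log2 0.87 to 1.08, so it did not always pass 2-fold.

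In limma's fit over both states, the keratins had the 4 highest estimates of the 8 genes for both inhibitors against untreated, and 0 of the 8 passed an adjusted p of 0.05 for any treatment. For the single steps the estimate of Hand1 (-0.68 for CHIR and 0.65 for PD) was larger in size than that of some keratins. For both inhibitors against untreated, the log2 estimates were 1.70 for Krt8 (SE 0.25, adjusted p = 0.115), 1.70 for Krt18 (SE 0.18, adjusted p = 0.0887), 1.70 for Krt19 (SE 0.46, adjusted p = 0.234) and 1.07 for Krt7 (SE 0.32, adjusted p = 0.252). In that comparison 0.0271% of all genes were called, 6 genes that all fell, and 14.3% had an unadjusted p under 0.05. For PD added to CHIR, the limma estimates were 1.38 for Krt7 (SE 0.32, adjusted p = 0.702), 1.08 for Krt18 (SE 0.18, adjusted p = 0.522), 0.96 for Krt8 (SE 0.25, adjusted p = 0.763) and 0.52 for Krt19 (SE 0.46, adjusted p = 0.892). There 0.018% of all genes were called, and 5.77% had an unadjusted p under 0.05, among them Krt7, Krt8, Krt18 and Hand1. For CHIR against untreated, limma called 0 of all genes, and 7.27% had an unadjusted p under 0.05, among them Krt8, Krt18, Krt19 and Hand1. The adjusted p of Krt18 for both inhibitors was 0.0494 without either CHIR array. Without the mESC array that had both inhibitors, the group with both inhibitors is 1 array, assumed to vary like the others. In that fit Krt7 passed for PD (log2 1.98, adjusted p = 0.0267) and Krt7 and Krt18 passed for both inhibitors (adjusted p = 0.037 and 0.0457). Over all alternatives, the adjusted p for both inhibitors ran from 0.037 to 0.728 for Krt7 and from 0.0371 to 0.52 for Krt18, and that of Krt7 for PD from 0.0267 to 1.0.

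**Figure D3:**
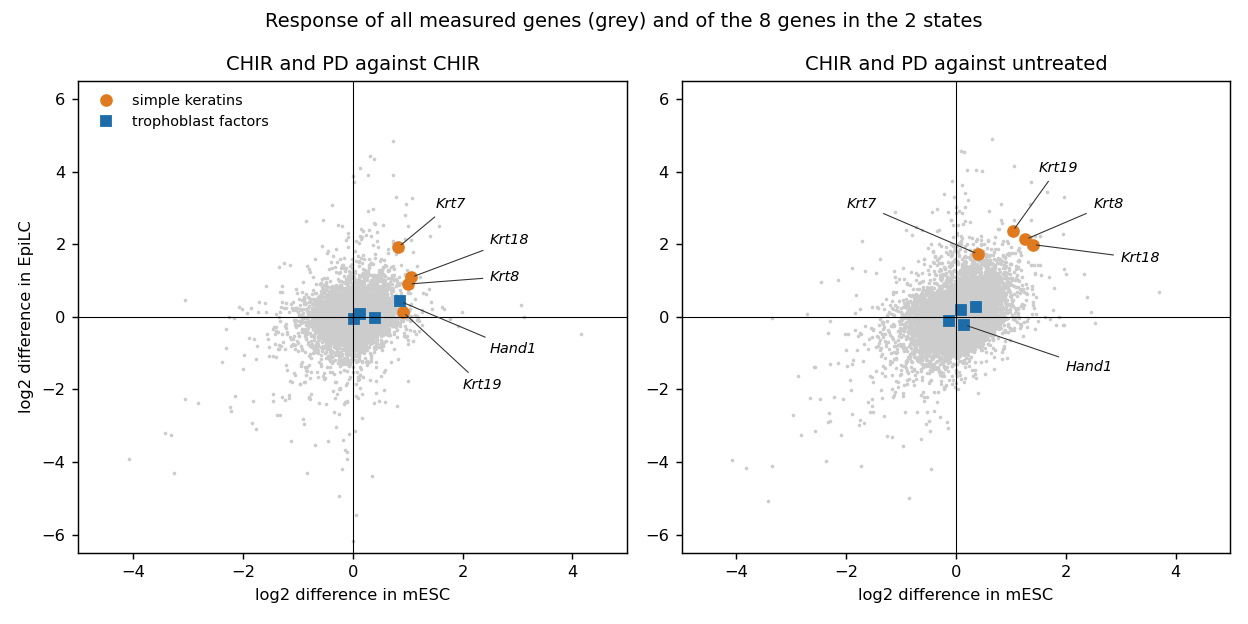
The log2 difference in mESC (horizontal) against that in EpiLC (vertical) for all 22180 genes (grey), with the 4 keratins as orange circles and the 4 trophoblast factors as blue squares, for CHIR and PD against CHIR (left) and against untreated (right). In the right panel Krt8, Krt18 and Krt19 lie above 1 on both axes, where 55 genes lie.

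Of the 4 trophoblast factors, 3 differed by cell state. Tfap2c, which encodes the transcription factor AP-2 gamma, fell by 3.40 on the log2 scale from mESC to EpiLC (SE 0.13, adjusted p = 0.000556 by limma). Its intensities were 263.7, 256.3 and 337.9 in mESC that were untreated, with CHIR, and with CHIR and PD, and 23.7, 29.1 and 28.4 in EpiLC. The states did not overlap, and the EpiLC values lay close to the lowest deposited value of 16, where differences are compressed. With a constant of 4 or 64 under the logarithm in place of 16, the estimate was -4.19 or -2.15, and without moderation of the variance the call was lost (adjusted p = 0.227). Within a state, arrays of Tfap2c differed by at most 0.40 on the log2 scale (PD added to CHIR in mESC).

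Hand1, a basic helix-loop-helix factor of giant cells and extraembryonic mesoderm, fell by 2.80 on the log2 scale (SE 0.13, adjusted p = 0.000889 by limma). The estimate was -3.15 or -2.02 with a constant of 4 or 64, and the call was lost without moderation (adjusted p = 0.229). Its mESC intensities were 398.6, 242.6 and 441.7, and its EpiLC intensities were 61.3, 39.3 and 52.9, for cells untreated, with CHIR, and with CHIR and PD. Every EpiLC value was below every mESC value, and CHIR alone gave the lowest value within each state. The log2 difference for CHIR was -0.72 in mESC and -0.64 in EpiLC, and the difference for PD added to CHIR was 0.86 and 0.43. Both steps use the same CHIR arrays. In the limma fit neither step passed (CHIR, adjusted p = 0.581, and PD, adjusted p = 0.735).

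Gata3, a zinc-finger factor of the trophectoderm, fell by 0.63 on the log2 scale over the mean of its 2 probes (SE 0.10, adjusted p = 0.021 by limma). The mean values were 89.6, 86.9 and 95.5 in mESC and 54.7, 58.4 and 62.1 in EpiLC, for cells untreated, with CHIR, and with CHIR and PD, with no overlap. The 2 probes did not behave alike. The first probe read 67.5, 58.5 and 61.4 in mESC and 60.5, 58.8 and 56.5 in EpiLC, and the states overlapped. The second probe read 118.9, 129.1 and 148.5 in mESC and 49.5, 58.0 and 68.2 in EpiLC, and the states were at least 2.18-fold apart at each treatment. A dim probe that Gata3 shares with other symbols was left out of the mean. It read 28.4, 25.9 and 29.3 in mESC and 20.4, 23.7 and 21.8 in EpiLC, without overlap. Gata3 was no longer called when any 1 array was left out (adjusted p 0.0544 to 0.0939) or without moderation of the variance (adjusted p = 0.229). With the brighter probe alone it fell by 1.18 (adjusted p = 0.00472).

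Elf5, an Ets-family factor that maintains trophoblast stem cells, had intensities of 71.8, 64.5 and 65.8 in mESC and 64.5, 62.1 and 59.6 in EpiLC, for cells untreated, with CHIR, and with CHIR and PD. Its log2 values spanned 0.27 over the 6 arrays, and the limma estimate between the states was -0.12 (SE 0.10, adjusted p = 0.546). Elf5 was thus within a narrow range, below the array median on all 6 arrays.

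**Figure D4:**
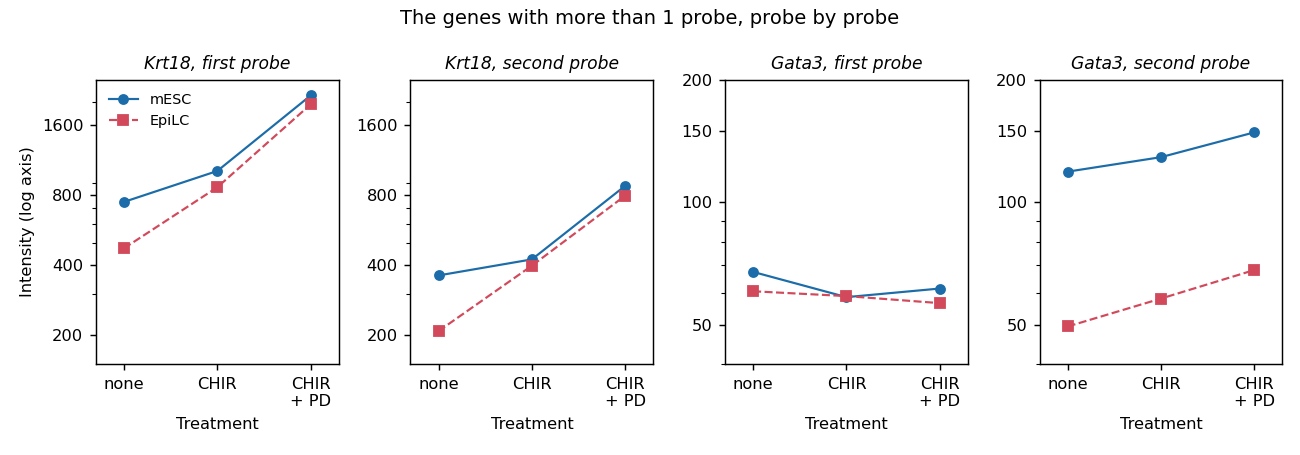
Intensity (log axis) of each probe of the 2 genes with more than 1 probe, by treatment, with mESC as blue circles and EpiLC as red squares, 1 array per point. Both Krt18 probes have their highest values with CHIR and PD in each state. Of the 2 Gata3 probes shown, only the second holds the states apart (118.9 to 148.5 against 49.5 to 68.2).

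Both Krt18 probes had the same order of treatments. PD added to CHIR gave log2 differences of 1.08 and 1.05 in mESC and of 1.18 and 1.00 in EpiLC for the first and second probe. Krt7, Krt8, Krt19, Tfap2c, Hand1 and Elf5 had 1 probe each.

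Over the 3 treatments, 3 of the 8 genes fell in EpiLC by limma (Tfap2c, Hand1 and Gata3), where 4.15% of all genes fell, and 0 of the 8 rose. These 3 were also the genes whose EpiLC arrays all lay below their mESC arrays, as 14.4% of all genes did. The keratins did not pass between the states. The limma estimates were -0.78 for Krt7 (SE 0.26, adjusted p = 0.143), -0.34 for Krt18 (SE 0.15, adjusted p = 0.247), -0.11 for Krt8 (SE 0.21, adjusted p = 0.79) and 0.60 for Krt19 (SE 0.38, adjusted p = 0.407). The Krt19 estimate was 0.12 without a CHIR array and 1.18 (adjusted p = 0.0617) without an untreated array.

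The keratin difference between the states varied with the treatment. Without treatment all 8 genes were lower in EpiLC, by 2.46-fold for Krt7 and by 1.66-fold for both Krt8 and Krt18, and 3 of the 8 were at least 2-fold lower, beside 2.3% of all genes. Of all genes, 50.4% were higher in untreated EpiLC, and 1.47% were at least 2-fold higher. With CHIR, Krt19 was 2.97-fold higher in EpiLC and Krt7 2.09-fold lower, so 1 of the 8 was 2-fold higher (2.45% of all genes) and 3 were 2-fold lower (2.63%). With a constant of 64 under the logarithm, the Krt7 differences were log2 -0.79 untreated and -0.59 with CHIR, short of 2-fold. With both inhibitors, Krt7 differed by 0.03, Krt8 by 0.14 and Krt18 by -0.13 on the log2 scale, and Krt19 was 1.72-fold higher in EpiLC. Then 0 of the 8 were 2-fold higher (3.29% of all genes) and 2 were 2-fold lower (3.11%), Tfap2c and Hand1.

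**Figure D5:**
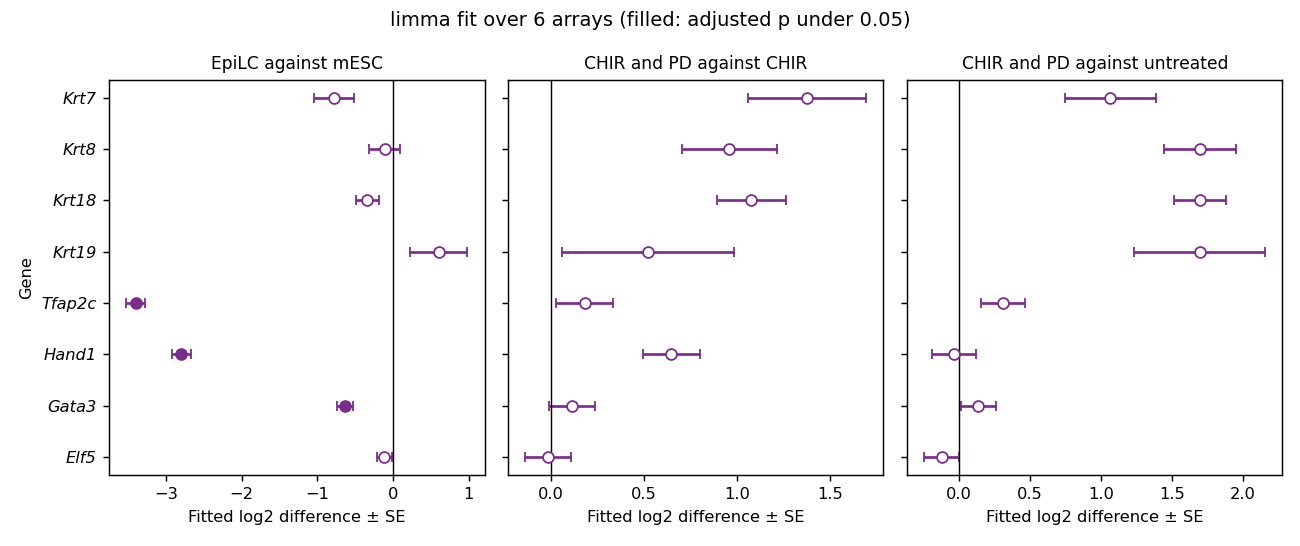
Fitted log2 difference ± SE from limma for the 8 genes (rows) between the states, for PD added to CHIR and for both inhibitors against untreated, over 6 arrays, where filled points have an adjusted p under 0.05. Tfap2c (-3.40), Hand1 (-2.80) and Gata3 (-0.63) are filled between the states, and all points are open for the treatments.

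The other keratin genes mostly spanned less than 2-fold. Log2 values spanned 1.92 for Krt7, 2.13 for Krt8, 2.13 for Krt18 and 2.36 for Krt19 over the 6 arrays. Of 49 other genes with a Krt symbol, 1 spanned at least 1 on the log2 scale (Krt42), beside 13.9% of all genes, and 36 lay below the array median on all 6 arrays. Krt42, a type I keratin, read 116, 109 and 175 in mESC and 84.7, 76.0 and 96.7 in EpiLC, and it fell between the states by 0.61 (SE 0.12, adjusted p = 0.0405 by limma). In a list of 17 measured epithelial and other keratins, among them the keratins of stratified epithelia, 0 were 2-fold apart for any treatment in either state (the largest differences were those of Krt6a, Krt1, Krt17 and Krt42, up to 0.91 in size), and the median log2 difference for both inhibitors was 0.12 in mESC and -0.09 in EpiLC.

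Of 16 other intermediate filament genes and desmosome linkers, 1 rose (Nes, by 2.21, adjusted p = 0.00533) and 3 fell (Jup, Lmna and Plec) between the states by limma, and 0 were called for a treatment. With both inhibitors in EpiLC, 3 of the 16 were at least 2-fold higher (2.62% of all genes) and 0 lower (1.49%). The 3 that fell differed by -1.12 (Jup), -0.80 (Lmna) and -0.61 (Plec). Dsp, which encodes desmoplakin, the protein that anchors keratin filaments to desmosomes, read 176 in untreated EpiLC, 642 with CHIR and 1060 with both inhibitors. In mESC its values were 287, 344 and 515, so Dsp, like Krt8, had its lowest and its highest value in EpiLC. Dsc2, a desmosomal cadherin, read 65.0, 119 and 132 in mESC and 58.9, 142 and 201 in EpiLC. Vim, the mesenchymal filament protein vimentin, read 1180, 1510 and 1200 in mESC and 1120, 2520 and 3270 in EpiLC, so its values were higher with each treatment in EpiLC. Des, the muscle filament protein desmin, read 89.3, 95.4 and 76.1 in mESC and 92.7, 181 and 87.5 in EpiLC, so it was high only with CHIR alone and 2-fold lower once PD was added. Nes read 126, 96.4 and 125 in mESC and 379, 574 and 688 in EpiLC.

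Other regulators of trophoblast specification also differed by state. Of 15 measured, 8 fell in EpiLC by limma (Tead4, Gata2, Tfap2a, Elf3, Fgfr2, Klf5, Esrrb and Id2) and 0 rose, beside 4.15% of all genes in each direction, and 0 were called for a treatment. Several of them, such as Esrrb and Klf5, are also factors of naive pluripotency. With CHIR in EpiLC, 4 of the 15 were at least 2-fold higher (Cdx2, Ets2, Elf3 and Arid3a) and 1 was lower (Id2). The shares of all genes were 1.77% and 0.929%. With both inhibitors in EpiLC, 3 were higher (Cdx2, Elf3 and Arid3a), beside 2.62% of all genes, and 2 lower (Eomes and Id2), beside 1.49%. In EpiLC, Ets2 read 214, 518 and 391, and Arid3a read 62.4, 236 and 258. Gata2, a relative of Gata3, read 658, 1080 and 2240 in mESC and 50.5, 44.8 and 57.3 in EpiLC (log2 -4.53, SE 0.29, adjusted p = 0.00206 by limma). Its mESC values were higher with each inhibitor, while the EpiLC values were all low. Elf3, an epithelial Ets factor, read 319, 265 and 670 in mESC and 61.8, 136 and 209 in EpiLC, with its highest value in each state under both inhibitors. Id2 read 776, 583 and 474 in mESC and 248, 82.2 and 40.4 in EpiLC, and was lower with each treatment in both states.

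Cdx2 and Eomes, factors of the trophectoderm and its stem cells that are also made in the primitive streak, did not pass between the states. Cdx2 read 111, 273 and 111 in mESC and 32.0, 143 and 260 in EpiLC, so PD went with a lower value in mESC and a higher one in EpiLC. Eomes read 55.5, 57.0 and 35.5 in mESC and 345, 390 and 33.7 in EpiLC, and the EpiLC value was low only with both inhibitors. Bmp4, a signal of the extraembryonic ectoderm, read 1110, 1670 and 200 in mESC and 146, 206 and 285 in EpiLC, so with PD it too was lower in one state and higher in the other.

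Of 16 measured genes of differentiated trophoblast and placenta, 7 fell in EpiLC by limma (Ascl2, Syna, Plac1, Peg10, Rhox9, Dlx3 and Tfeb) and 0 rose, beside 4.15% of all genes in each direction, and 0 were called for a treatment. Plac1 read 82.3, 59.3 and 123 in mESC and 22.8, 18.3 and 28.9 in EpiLC, with CHIR alone lowest in each state as for Hand1. Peg10 read 1530, 2100 and 2370 in mESC and 398, 687 and 1290 in EpiLC, and Rhox9 read 151, 155 and 174 against 52.2, 42.7 and 72.3. Ascl2 read 293, 181 and 292 in mESC and 72.4, 62.3 and 26.1 in EpiLC, so both inhibitors went with its lowest EpiLC value. With both inhibitors in EpiLC, 2 of the 16 were at least 2-fold higher (Peg10 and Cited2) and 1 lower (Ascl2), beside 2.62% and 1.49% of all genes. In EpiLC, Cited2 read 677, 1840 and 2270, and Cited1 read 138, 380 and 164. Of the 16 genes, 5 were below the array median on all 6 arrays (Syna, Synb, Tpbpa, Ctsq and Hsd3b6), among them the spongiotrophoblast marker Tpbpa (34.7 to 46.7) and the syncytin gene Synb.

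Markers of other cell types were measured beside these genes, and their part in the keratin and factor values was not tested. Between the states 4.15% of all genes rose and 4.15% fell by limma, and with both inhibitors in EpiLC 2.62% were at least 2-fold higher and 1.49% lower. Of 10 primitive endoderm markers, 1 fell between the states by limma (Lama1) and 0 were called for a treatment. Their summed intensity was 1931 to 2573 on the mESC arrays and 1685 to 3001 on the EpiLC arrays. Sparc was the largest part of this sum on every array (1330 in untreated mESC). Gata6 read 85.9 in untreated EpiLC, 619 with CHIR and 75.6 with both inhibitors, and Pdgfra read 18.0, 224 and 32.4 on the same arrays. Gata4 read 56.4, 105 and 44.6. These 3 markers were highest with CHIR alone among the EpiLC arrays. So were Lama1, Foxa2 (175, 311 and 197) and Sox17 (162, 236 and 158), while Sox7, Dab2, Col4a1 and Sparc were not. Sparc, a matrix protein gene that is also made outside the endoderm, read 936, 966 and 2190 on these arrays. It was the 1 marker of the 10 at least 2-fold higher with both inhibitors in EpiLC, and 0 were lower. That array also had the highest value of each of the 4 keratins among the EpiLC arrays. In mESC 0 of the 10 were 2-fold apart for any treatment. Lama1 read 158, 157 and 278 in mESC and 39.5, 82.6 and 36.6 in EpiLC.

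Of 10 surface ectoderm markers, 1 rose in EpiLC by limma (Cldn6) and 0 fell, and their summed intensity was 2769 to 3257 in mESC and 3041 to 5100 in EpiLC. The largest values in untreated mESC were those of Cdh1 (786), Epcam (780) and Cldn6 (608). The sum there rests largely on them and not on the list as a whole. In EpiLC with both inhibitors, where the sum was highest, Wnt6 was the brightest of the 10. Wnt6 read 1400 in EpiLC with both inhibitors and between 60.0 and 81.1 on the other 5 arrays. Grhl3, an epithelial factor, read 337, 269 and 455 in mESC and 70.6, 207 and 243 in EpiLC, so its EpiLC values were higher with each treatment. Its relatives went the other way, with 274, 124 and 150 for Grhl2 and 94.6, 54.3 and 46.5 for Grhl1 in EpiLC. With both inhibitors in EpiLC, 2 of the 10 were at least 2-fold higher (Wnt6 and Grhl3) and 1 lower (Grhl1), and in mESC 1 was lower (Grhl2). Trp63, an epidermal factor, read 82.3 to 104 over the 6 arrays. Cldn6 read 608, 522 and 734 in mESC and 1070, 794 and 1310 in EpiLC.

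Of 11 measured markers of extraembryonic and lateral mesoderm, where Hand1 is also made, 3 fell in EpiLC by limma (Msx2, Ahnak and Tbx20) and 0 rose. Their summed intensity was 1038 to 1310 in mESC and 732.6 to 1319 in EpiLC, and 3 of the 11 (Hand2, Postn and Gata5) were below the array median on all 6 arrays. With both inhibitors, 3 of the 11 were at least 2-fold higher in EpiLC (Msx2, Bmp7 and Ahnak) and 0 lower, and in mESC 2 were higher (Msx2 and Ahnak) and 1 lower (Tbx20). In EpiLC, Bmp7 read 88.8, 577 and 257, Msx2 read 19.2, 22.3 and 53.0, and Ahnak read 91.3, 117 and 216. Ahnak, a large scaffold protein gene, also read 186, 215 and 387 in mESC, so it had its highest value with both inhibitors in each state.

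Of 6 germ cell markers, among which Tfap2c is often counted, 4 fell (Prdm1, Prdm14, Dppa3 and Kit) and 0 rose. Their summed intensity was 926.4 to 1640 in mESC and 394.6 to 458.0 in EpiLC, and Nanos3 was below the array median on all 6 arrays. In EpiLC 0 of the 6 were 2-fold apart for a treatment, and in mESC 1 was 2-fold higher with both inhibitors (Kit, 344 to 903). Of 10 fibroblast markers, 1 rose (Col1a1) and 0 fell. Their summed intensity was 2644 to 3688 in mESC and 2153 to 4079 in EpiLC, and Col1a2, Col3a1, Twist2, S100a4 and Dcn were below the array median on all 6 arrays. Fn1 was the largest part of this sum on every array (1830 in untreated mESC and 3260 in EpiLC with CHIR). In EpiLC, Fn1 read 918, 3260 and 2310 and was the 1 marker of the 10 at least 2-fold higher with both inhibitors. With PD added to CHIR, 2 were 2-fold higher in EpiLC, Col1a1 (198, 165 and 370) and Acta2 (613, 253 and 845), and Thy1 read 80.0, 74.7 and 44.6. In mESC 0 of the 10 were 2-fold apart for a treatment. By limma, 0 genes of the surface ectoderm, mesoderm, germ cell and fibroblast lists were called for a treatment.

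The genes whose pattern was most like that of each gene were ranked by Pearson r of log2 values over the 6 arrays. The ranking covered 3071 other genes whose values spanned at least 1. Symbols of predicted genes, clones and small RNAs among them were passed over when the 5 were named. With 6 points on shared arrays, the r values are descriptions. For Krt8 they were Elovl1 (0.996), Cast, Pld3, Cryz and Gabarap (0.981). For Krt18 they were Cd59a (0.985), Gpr19, Elovl1, Krt8 (0.978) and Camk2n1 (0.971), so its partner gene was among the 5 and Elovl1 was near both. For Krt19 they were Ccdc82 (0.987), Mapkapk2, Enpp5, C2cd2 and Dap (0.98), and for Krt7 they were Mme (0.988), Arhgap8, Tinagl1, Tgm2 and Hspg2 (0.97). For Tfap2c they were Trim13 (0.999), Lrrc34, Fbxo15, Klf4 and Mreg (0.996), and for Hand1 they were Sik1 (0.999), Atg14, Serpinb9e, Apoc1 and Dppa3 (0.994). The lists for the 4 keratins shared Elovl1 alone, between Krt8 and Krt18, and Gata3 and Elf5 had spans under 1 and were not ranked.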

How the data were processed

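Biotin-labelled total RNA of 6 samples was hybridised to Mouse Gene 2.0 ST arrays, and the authors analysed the scans in GeneSpring GX 11.5, per the labels' design text. The values used are the deposited intensities of 33793 probes, on a linear scale, whose normalisation was not given in the sources at hand. The 8 genes and 9 gene lists (111 of 117 genes measured) were chosen with earlier results of these data known. Probes with 1 platform symbol (23521) gave 22180 genes, and 1814 probes with several symbols and 8458 with none were left out. Log2 intensities were fitted in R 4.3.3 by limma 3.58.1 (lmFit, then eBayes, state and treatment additive, 2 residual degrees of freedom, two-sided, Benjamini-Hochberg at 0.05). The number of arrays limits the precision. In 5 simulations with 200 changed genes among 22180, the state contrast recovered 65.8% of 2-fold and 95.8% of 4-fold changes, and PD added to CHIR recovered 24% and 92.8%. How far these recovered shares hold for the arrays, where the error measures departure from additive effects, was not tested. Named from each list were up to 4 genes with the largest treatment difference and up to 4 called by limma. For those of the 8 genes that spanned at least 1, the 5 most alike were named, passing over predicted genes, clones and small RNAs. Other list genes named were singled out after their values were seen. Alternatives changed the constant under the logarithm, the scaling, the dim-gene filter, the probe rule, the moderation, the treatment term and the arrays used.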

Additional observations from a re-analysis of the deposited data

Results flagged for a closer look

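Some differences had opposite signs in the 2 states, or between treatments, and none of these was tested, since each rests on single arrays. For CHIR against untreated, the log2 difference was -0.04 in mESC and 0.30 in EpiLC for Tfap2c (0.34 apart), and -0.04 and 0.09 for Gata3 (0.14 apart). Opposite signs in this contrast were seen for 2 of the 8 genes and for 42.5% of all genes. For PD added to CHIR, Tfap2c differed by 0.40 in mESC and -0.04 in EpiLC (-0.43 apart, EpiLC minus mESC), and Elf5 by 0.03 and -0.06 (-0.09 apart), which is 2 of the 8 genes beside 45.6% of all genes. For both inhibitors against untreated, Hand1 differed by 0.15 in mESC and -0.21 in EpiLC (-0.36 apart), which is 1 of the 8 genes beside 42.7%.

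Between EpiLC and mESC, 3 keratins changed sign with the treatment, beside 53.3% of all genes. The difference of Krt19 was -0.55 untreated, 1.57 with CHIR and 0.78 with both inhibitors, a span of 2.11. Krt7 had -1.30, -1.07 and 0.03, a span of 1.32, and Krt8 had -0.73, 0.25 and 0.14, a span of 0.98.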

How the results depend on the processing

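Of the counts of genes past a threshold among the 8, 108 recomputed under an alternative stayed within 1.5 times the count reported and 9 did not. By this rule 2 in place of 3, as when Gata3 lost its state call, counts as unchanged, and so does 0 in place of 0. Leaving out 1 array gives the same state fit as leaving out its pair, so these alternatives repeat each other. The cause of each change was not tested. Without variance moderation, limma called 0 of the 8 genes between the states in place of 3, and 0 of all genes in place of 1841. For both inhibitors against untreated, limma called 1 of the 8 in place of 0 with trend and robust moderation (Krt18, adjusted p = 0.0371) and 1 without the pair of CHIR arrays, and 0 to 2 when 1 array was left out. For PD added to CHIR, leaving out 1 array gave 0 to 1. In mESC, 1 gene in place of 2 was 2-fold higher with PD when the constant under the logarithm was 64 in place of 16, and also after quantile normalization.

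Signs turned only for estimates that had not passed the test. The Krt8 state estimate was 0.194 without the untreated pair, and -0.294 to 0.194 with 1 array left out. With 1 array left out, the CHIR estimate was -0.7 to 0.079 for Krt7, -0.032 to 0.082 for Gata3 and -0.065 to 0.323 for Tfap2c. For PD added to CHIR, Elf5 gave 0.007 after quantile normalization, 0.001 after median centring and -0.062 to 0.031 with 1 array left out, which gave -0.202 to 1.249 for Krt19 and -0.012 to 0.376 for Tfap2c. For both inhibitors, Hand1 gave 0.008 with a constant of 64, 0.021 after median centring and -0.233 to 0.167 with 1 array left out. Without the pair with both inhibitors, Krt7 was called between the states (log2 -1.18, adjusted p = 0.0109). Tfap2c and Hand1 lost their calls only without moderation.

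Over all genes, the state count of 1841 became 1016 with a constant of 4, 945 without the CHIR arrays and 1209 without the arrays with both inhibitors. The treatment counts were 0 to 52 for CHIR (0 reported), 0 to 71 for PD added to CHIR (4 reported) and 0 to 152 for both inhibitors (6 reported), highest without the mESC array with CHIR for the first and without the mESC array with both inhibitors for the others. No paired analysis was possible because each group has 1 array, and the treatment term already sets the states side by side. With state alone in the model, limma called the same count of 3 among the 8 genes and 1375 of all genes. Signal near the lowest value of 16 limits Tfap2c in EpiLC. Krt7 differences that rest on its low values in EpiLC without PD also moved with the constant under the logarithm.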
